A study of Oryza sativa Japonica Group with 8 samples.

Results

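Small interfering RNAs (siRNAs) of young rice panicles were compared between a dcl3b knockdown mutant and wild type, in genome windows of 500 bases. The members were all rows of the authors' lists of changed windows, 11 windows for 21-nt siRNA and 113 for 24-nt siRNA, or 124 of the 1298 rows (windows and genes) deposited for the study. They covered 123 distinct windows, since 1 window was listed for both sizes. The groups were field-grown japonica rice (Oryza sativa Japonica Group) of the dcl3b knockdown mutant genotype and of the wild type genotype, with panicles taken before heading. Each genotype had 1 small RNA library and 3 mRNA libraries. The labels do not say how the knockdown was made, how many lines it holds or how many plants were pooled. The identity of the tissue was not checked on marker genes, because the mRNA lists hold changed genes only.

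Plant Dicer-like enzymes cut double-stranded RNA into siRNAs of set lengths. In rice, OsDCL4 makes 21-nt siRNAs, and the paralogues OsDCL3a and OsDCL3b make 24-nt siRNAs. The 24-nt siRNAs guide DNA methylation and silencing at transposons and repeats, and OsDCL3b is known for 24-nt phased siRNAs, which rice makes in its reproductive organs. Phased 21-nt siRNAs of grass panicles come mostly from long non-coding RNAs outside annotated protein genes.

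Levels are given in RPTM, taken as reads in each 10000000 reads of a library. The smallest unit of the values was 1.36 RPTM in the knockdown and 1.24 RPTM in wild type, which is the worth of 1 read at depths of 7358371 and 8037518 reads. These depths rest on that reading of RPTM, and which reads they count was not checked. With 1 library per genotype no test between genotypes is possible. Every ratio below is knockdown over wild type and describes these libraries. Its exact 95% binomial interval covers the counting error of the reads and nothing else. In whole panicles, fewer cells of a type and less siRNA per cell cannot be told apart.

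The window with the highest level in the knockdown, for both sizes, lay in the knocked-down gene itself. The window at chr10:18367000-18367499 (coordinates as in the files, build not given in the sources used here) falls in LOC_Os10g34430, which the files describe as Dicer and which is OsDCL3b. Its 21-nt siRNA stood at 17550.08 RPTM in the knockdown (12914 reads), against 6.22 RPTM in wild type (5 reads), a ratio of 2821 with an interval of 1209 to 8690. Its 24-nt siRNA stood at 7417.4 RPTM in the knockdown (5458 reads), against 4.98 RPTM in wild type (4 reads), a ratio of 1490 with an interval of 582 to 5472. Both sizes were thus near the level of single reads in wild type and abundant in the knockdown, where they made up 0.250% of the library depth given above.

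The 21-nt size made up 70.3% of the 21-nt and 24-nt reads of the OsDCL3b window in the knockdown (exact interval 69.6% to 71.0% of 18372 reads). In wild type it made up 55.6%, with an interval of 21.2% to 86.3% on 9 reads, so a difference in size share was not detectable at the wild type depth. The mRNA of the gene was lower in the knockdown. It stood at 0.39, 0.50 and 0.44 FPKM (fragments scaled by transcript length and library size) in the knockdown, against 0.97, 0.98 and 0.88 FPKM in wild type, and the genotypes did not overlap. In the authors' deposited table the gene fell by 1.09 on the log2 scale with an adjusted p of 5.49e-07 over 3 libraries per genotype.

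The OsDCL3b window was the 1 window of 11 (9.09%) with a higher 21-nt level in the knockdown, and the other 10 (90.9%) were lower. Summed over the 11 windows, the 21-nt signal was 17644 RPTM in the knockdown and 3142 RPTM in wild type. Without the OsDCL3b window the sums were 93.8 RPTM in the knockdown and 3135 RPTM in wild type, a ratio of 0.0299. The sum over all windows was thus set by 1 window and its direction turned without it. All 11 windows had a ratio past 2-fold, and 9 of the 10 lower windows (81.8% of the 11) were past 10-fold.

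The 10 lower 21-nt windows came from only 2 places in the genome when windows within 10 kb of each other are counted as 1. The first is a stretch of chromosome 6 with 7 windows over 37.5 kb, chr6:24642000-24679499. Their 21-nt signal summed to 2 reads (2.72 RPTM) in the knockdown, against 1884 reads (2344 RPTM) in wild type. In the knockdown 5 of the 7 windows had no read and the other 2 had 1 read each. In wild type every one of the 7 stood at 103.27 RPTM or more.

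The window with the most reads in this stretch, at chr6:24676500-24676999 and outside annotated genes, had 1.36 RPTM in the knockdown (1 read) and 1378.54 RPTM in wild type (1108 reads). Its ratio was 0.000986, with an interval of 2.49e-05 to 0.00550, and it held 44.0% of the wild type signal of all lower 21-nt windows. The window that adjoins it, also intergenic, had no read in the knockdown and 103.27 RPTM in wild type, which makes it at least 25.3-fold lower when the knockdown is set at a floor of 3 reads (4.08 RPTM). Here and below, an "at least" fold treats the level of the other library as exact. The exact interval of this ratio reached 0.0496, which allows a smaller change. A window of LOC_Os06g41240, an undescribed expressed protein, had no read in the knockdown and 268.74 RPTM in wild type (at least 65.9-fold lower). LOC_Os06g41210, a hypothetical protein, had no read in the knockdown and 221.46 RPTM in wild type (at least 54.3-fold lower). The annotations of these genes carry no function.

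Both lower 21-nt windows with a transposon annotation were in the same stretch. They fell in LOC_Os06g41190 and LOC_Os06g41200, both described as Ty1-copia retrotransposon proteins, which belong to elements that copy themselves through RNA. LOC_Os06g41190 had no read in the knockdown and 128.15 RPTM in wild type. LOC_Os06g41200 had 1 read (1.36 RPTM) in the knockdown and 116.95 RPTM in wild type, a ratio of 0.0116 with an interval of 0.000291 to 0.0663. The remaining window, chr6:24642000-24642499, was intergenic and had no read in the knockdown, against 126.9 RPTM in wild type. None of the genes of the stretch that hold a window was in the authors' lists of changed mRNAs.

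The 24-nt list held 3 further windows next to this stretch, all lower. A second window of LOC_Os06g41240, which starts 2 kb beyond the start of its 21-nt window, had no 24-nt read in the knockdown and 138.1 RPTM in wild type. An adjoining pair of intergenic windows at chr6:24700500-24701499 lay 19 kb further on. The first of the pair had no read in the knockdown and 385.69 RPTM in wild type, and the second had 1 read (1.36 RPTM) in the knockdown and 250.08 RPTM in wild type. Over 59.5 kb the 10 listed windows of both sizes held 3 reads in the knockdown and 2506 reads in wild type. This span is wider than the 10 kb rule allows, under which the intergenic pair is a separate place. The other 8 windows, over 39.5 kb, held 2 reads in the knockdown and 1995 reads in wild type. No window of the stretch was listed for both sizes, and the level of the other size in each window was not analysed here.

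**Figure D1:**
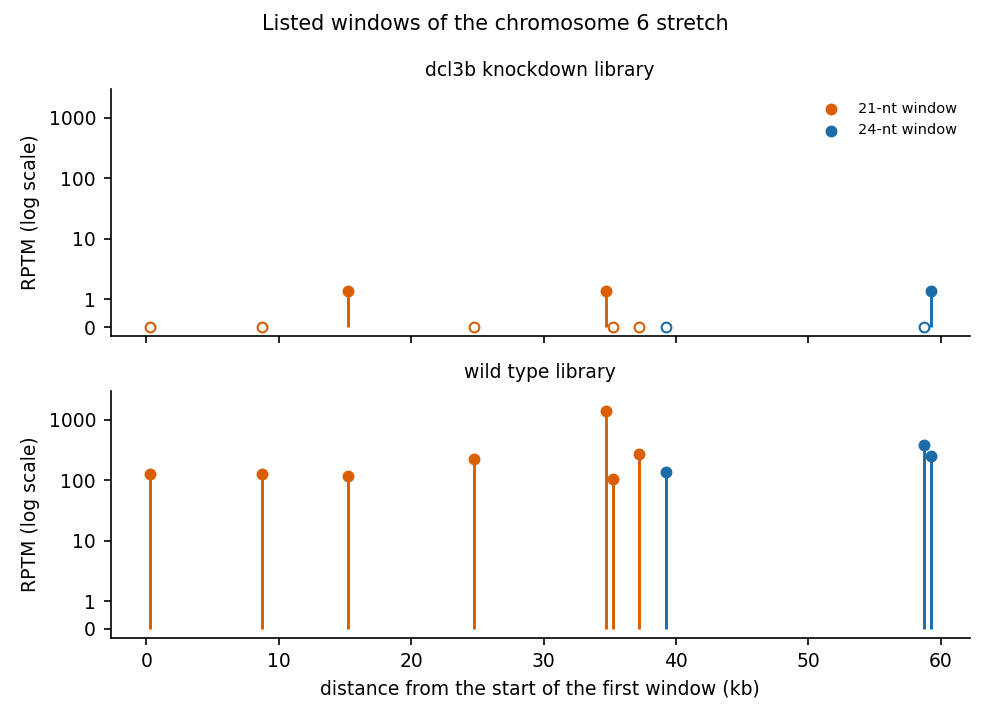
The 10 listed windows of the chromosome 6 stretch, with RPTM on a log axis against the distance in kb from the start of the first window, for 21-nt (orange) and 24-nt (blue) siRNA, 1 library per panel. Open circles mark windows with 0 reads: the knockdown library has at most 1 read (1.36 RPTM) in any window, and the wild type library has 103.27 to 1378.54 RPTM. The adjoining 24-nt pair lies 19 kb beyond the other windows and is a separate place under the 10 kb rule.

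The second place of lower 21-nt siRNA was a gene with part of its signal left. Its 3 adjoining windows, chr8:7325000-7326499, all fall in LOC_Os08g12410, a pectinesterase, an enzyme that removes methyl groups from the pectin of cell walls. In order along the chromosome they stood at 12.23, 59.8 and 19.03 RPTM in the knockdown, against 145.57, 434.21 and 211.51 RPTM in wild type. The ratios were 0.0840 (interval 0.0375 to 0.165), 0.138 (0.0983 to 0.189) and 0.0900 (0.0482 to 0.155). The middle window was the highest of the run in both libraries, and the 3 intervals overlap. The run is 1 locus and not 3 replicates. LOC_Os08g12410 was not in the lists of changed mRNAs.

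The 24-nt list ran mostly in the direction of loss. Of its 113 windows 87 (77.0%) were lower and 26 (23.0%) were higher in the knockdown, all of them past 2-fold. Past 10-fold, 47 windows (41.6%) were lower and 14 (12.4%) higher. The 87 lower windows summed to 1177 RPTM in the knockdown and 14614 RPTM in wild type, a ratio of 0.0805. The 26 higher windows summed to 11440 RPTM in the knockdown and 406 RPTM in wild type. The OsDCL3b window held 64.8% of that knockdown sum, and without it the other 25 summed to 4023 RPTM in the knockdown and 401 RPTM in wild type, a ratio of 10.04.

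All these windows were chosen by the authors for their change, from a number of tested windows that the labels and files do not state. The shares above therefore describe the list and not the genome. No window had a change under 5.04-fold or a level under 85.62 RPTM in its higher library. A window with a low level in wild type can enter such a list only by being higher, and one with a level of 0 in the knockdown only by being lower.

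**Figure D2:**
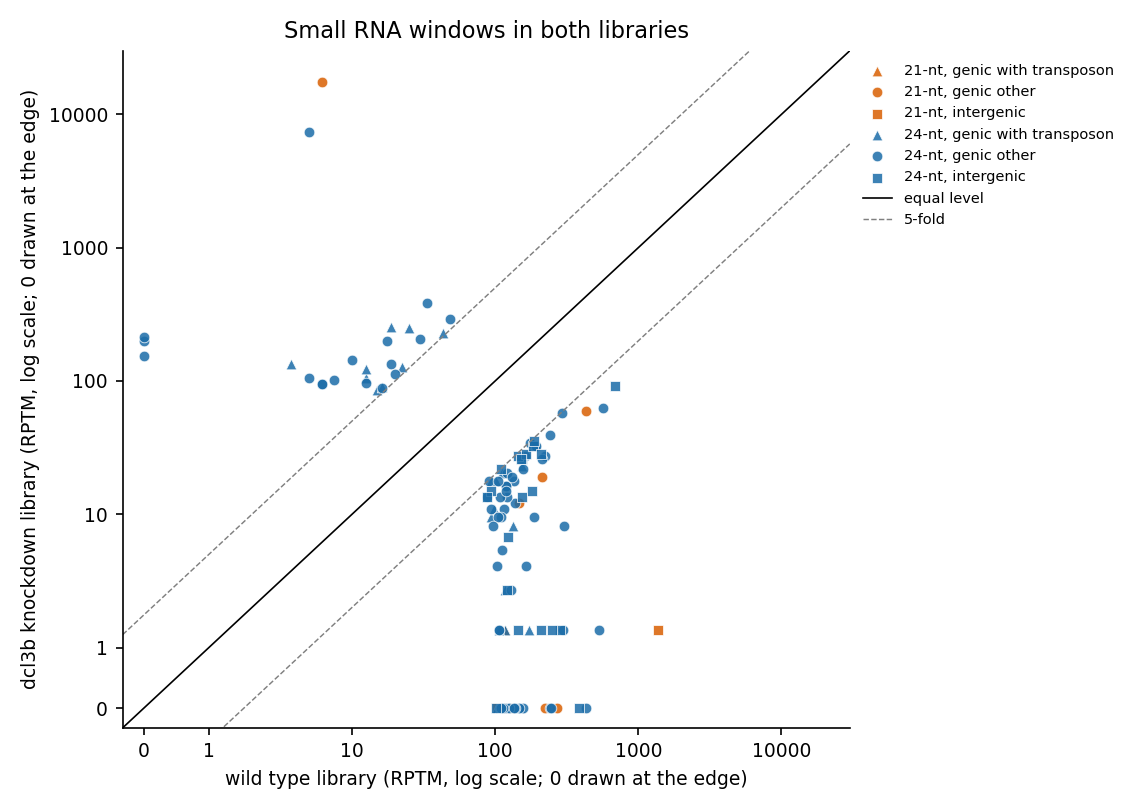
Level of each of the 124 windows in the knockdown library (vertical) against the wild type library (horizontal), in RPTM on log axes with 0 drawn at the edge, coloured by siRNA size and shaped by location. The OsDCL3b window stands alone at the top for both sizes (17550.08 and 7417.4 RPTM in the knockdown), the other higher windows lie between 85.62 and 383.24 RPTM in the knockdown, and many lower windows sit at 0 or 1 read.

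The lower 24-nt windows differed in how much was left. In the knockdown 19 of the 87 had no read and 11 had a single read, so that 30 windows (34.5%) had at most 1 read left. A further 7 had 2 to 5 reads, and 50 (57.5%) kept 6 to 67 reads. The wild type level had a median of 136 RPTM (range 100.78 to 527.53) in the windows left with 0 or 1 read, and of 137 RPTM (range 87.09 to 681.8) in those left with 6 or more. In the windows left with 6 or more reads the median ratio was 0.141. The windows left with 0 or 1 read were spread over 11 of the 12 chromosomes. The limits of these groups were set after the values were seen.

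Abundant windows left with 0 or 1 read lay in protein genes and outside genes. LOC_Os02g05030, a sucrose-phosphatase, which makes the last step of sucrose synthesis, had 1 read (1.36 RPTM) in the knockdown and 527.53 RPTM in wild type, a ratio of 0.00258 with an interval of 6.51e-05 to 0.0144. This was the lowest ratio among the 24-nt windows with a read in both libraries. LOC_Os03g20670, an ELMO/CED-12 family protein, had no read in the knockdown and 431.73 RPTM in wild type, which makes it at least 106-fold lower. LOC_Os07g27350, described as atuA, had 1 read in the knockdown and 298.6 RPTM in wild type. Among intergenic windows, chr4:22406000-22406499 had 1 read in the knockdown and 283.67 RPTM in wild type, and chr11:1763500-1763999 had 1 read and 210.26 RPTM. The ratios of these last 3 windows were 0.00455, 0.00479 and 0.00646, with upper limits of 0.0256, 0.0270 and 0.0365.

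Other abundant lower windows kept a part of their siRNA. The intergenic window at chr11:20707000-20707499 had the highest wild type level of the 24-nt list, with 91.05 RPTM in the knockdown and 681.8 RPTM in wild type (ratio 0.134, interval 0.102 to 0.172). An adjoining pair of windows in LOC_Os06g43010, an undescribed expressed protein, had 10.87 and 62.51 RPTM in the knockdown, against 93.31 and 568.58 RPTM in wild type. The stronger window of that pair had a ratio of 0.110 (interval 0.0794 to 0.149). LOC_Os07g05100, another undescribed expressed protein, stood between these cases, at 8.15 RPTM in the knockdown and 302.33 RPTM in wild type (ratio 0.0270, interval 0.00980 to 0.0596). LOC_Os02g11810, a conserved hypothetical protein, kept the most in proportion among the abundant windows, with 57.08 RPTM in the knockdown and 291.13 RPTM in wild type (ratio 0.196, interval 0.138 to 0.273).

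By location, 24-nt windows in genes were found in both directions. All 21 intergenic windows were lower, and all 26 higher windows were genic. Windows in a gene with a transposon annotation numbered 9 among the higher and 15 among the lower ones, and other genic windows 17 and 51, where 77.0% of the whole list was lower. The median ratio of the lower windows was 0.0613 for transposon-annotated, 0.0869 for other genic and 0.134 for intergenic windows, beside 0.0886 over all 87, with windows without a read set at a floor of 3 reads. At most 1 read was left in 6 of the 15 transposon-annotated (40%), 18 of the 51 other genic (35.3%) and 6 of the 21 intergenic windows (28.6%). With 15 to 51 windows per class and no replicate library, no difference between the classes was tested.

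**Figure D3:**
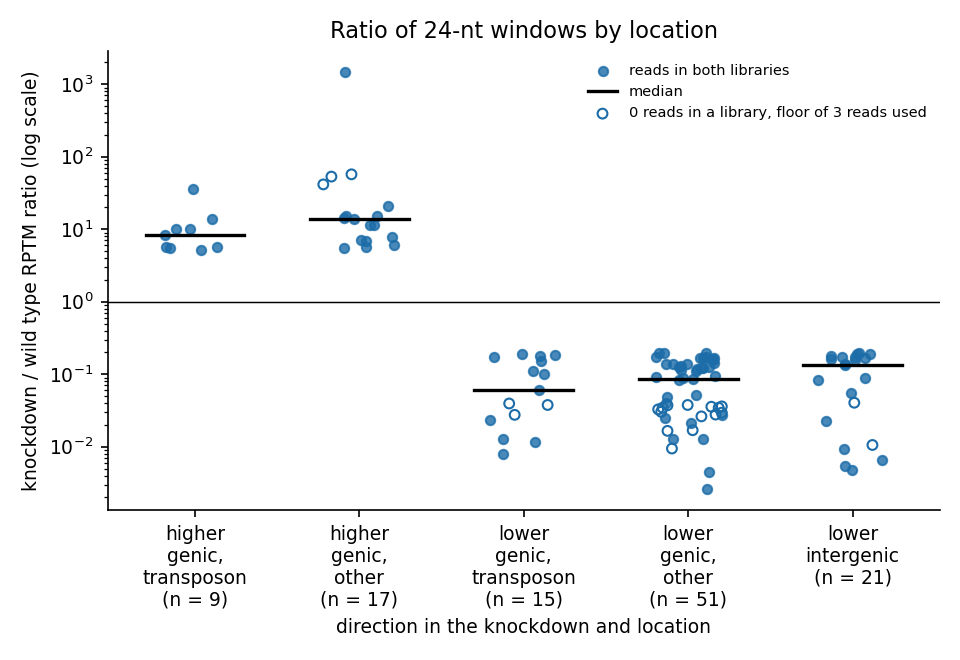
Ratio of knockdown to wild type RPTM (log axis) for each 24-nt window, grouped by direction and location, with the median as a line and open circles for windows with 0 reads in a library, set at a floor of 3 reads. Lower windows run from 0.00258 to 0.199 with overlapping ranges in the 3 location classes, and no intergenic window is higher.

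Transposon classes were counted beside the same list share of 77.0% lower windows. Unclassified retrotransposon genes held 4 higher windows, at 85.62 to 134.54 RPTM in the knockdown and 3.73 to 16.17 RPTM in wild type. They also held 7 lower windows, at 0 to 32.62 RPTM in the knockdown and 102.02 to 180.4 RPTM in wild type. Genes of the CACTA class, DNA transposons that move by excision, held 1 higher and 3 lower windows. Ty1-copia genes held 1 higher and 1 lower window, the LINE class 1 higher window, and the Mutator and Ty3-gypsy classes 1 lower window each. Unclassified transposon genes held 2 higher windows, at 251.41 and 255.49 RPTM in the knockdown and 24.88 and 18.66 RPTM in wild type, and 2 lower windows, at 9.51 and 10.87 RPTM in the knockdown and 93.31 and 98.29 RPTM in wild type. Of the 24 transposon-annotated windows 12 span a second gene (5 of the higher and 7 of the lower), and the files do not say from which gene such reads came. Transposon copies resemble each other, and the labels and files do not state how reads with several matches were placed.

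Among the higher transposon windows, LOC_Os07g13190, an unclassified retrotransposon gene, held the 1 adjoining pair. Its windows stood at 123.67 and 134.54 RPTM in the knockdown, against 12.44 and 3.73 RPTM in wild type. The second window of the pair, with 3 wild type reads, had a ratio of 36.0 and a wide interval of 12.0 to 178. LOC_Os05g23140, a LINE retrotransposon gene, had 228.31 RPTM in the knockdown and 43.55 RPTM in wild type. Its ratio of 5.24 (interval 3.63 to 7.78) was the lowest among the higher windows. A window shared by an unclassified transposon gene and a cation:proton antiporter gene (LOC_Os11g42780 and LOC_Os11g42790) had 255.49 RPTM in the knockdown and 18.66 RPTM in wild type.

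In 3 higher windows 24-nt siRNA was listed at 0 in wild type. LOC_Os01g59400, an undescribed expressed protein, had 213.36 RPTM in the knockdown and no wild type read (at least 57.2-fold higher). LOC_Os01g55974, a deoxycytidylate deaminase, an enzyme of nucleotide metabolism, had 198.41 RPTM in the knockdown and no wild type read (at least 53.2-fold higher). LOC_Os09g18050, an undescribed expressed protein, had 154.93 RPTM in the knockdown and no wild type read (at least 41.5-fold higher). A count of 0 in wild type allows a level of up to 3.73 RPTM.

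Other abundant higher windows outside OsDCL3b had reads in both libraries. The window shared by LOC_Os06g03650, an undescribed expressed protein, and LOC_Os06g03660, a peroxisomal biogenesis factor 11 (a protein of peroxisome division), had 383.24 RPTM in the knockdown and 33.59 RPTM in wild type (ratio 11.4, interval 7.68 to 17.6). LOC_Os09g29670, a white-brown complex homolog, a class of membrane transporters, had 293.54 RPTM in the knockdown and 48.52 RPTM in wild type (ratio 6.05, interval 4.29 to 8.74). The window of LOC_Os02g39020, an unclassified transposon, and LOC_Os02g39030, a transmembrane protein, had 251.41 RPTM in the knockdown and 24.88 RPTM in wild type. LOC_Os12g40730, a helix-loop-helix DNA-binding protein, had 206.57 RPTM in the knockdown and 29.86 RPTM in wild type. All of them lay far below the 7417.4 RPTM of the OsDCL3b window.

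Among described genes, protein classes were grouped after the values were seen, and their counts are to be read beside the 77.0% of the whole 24-nt list that was lower and the 23.0% that was higher. Genes with a kinase description, enzymes that add phosphate to proteins, held 2 higher windows (88.33 and 95.13 RPTM in the knockdown) and 5 lower windows (5.44 to 17.67 RPTM in the knockdown). Transcription factor or DNA-binding genes held 2 higher and 4 lower windows. The MYB gene LOC_Os08g43550 was among the lower ones, with no read in the knockdown and 124.42 RPTM in wild type. Cytochrome P450 genes, oxidases of plant metabolism, held no higher and 3 lower windows, each with 0 or 1 read in the knockdown and 105.75 to 172.94 RPTM in wild type. Some of these windows span a second gene. The P450 window of LOC_Os10g21060 is shared with a retrotransposon gene, and the kinase windows of LOC_Os02g13510 and LOC_Os06g38100 with unclassified transposon genes. The windows of the kinase gene LOC_Os05g14750 and the DNA-binding gene LOC_Os09g04440 are shared with undescribed genes. The other classes looked up were 3. Peptidase or protease genes held 0 higher and 3 lower windows, transporter or permease genes 2 of each, and F-box genes 1 of each. Counts this small cannot be set apart from the shares of the list. Undescribed genes alone held 6 of the 26 higher and 19 of the 87 lower windows.

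At the edge of the list, the 5 windows of 24-nt siRNA nearest to a ratio of 1 still differed by more than 5-fold. An intergenic window at chr1:25252000-25252499 had 21.74 RPTM in the knockdown and 109.49 RPTM in wild type, a ratio of 0.199 with an interval of 0.109 to 0.341. LOC_Os04g02020, a hypothetical protein, had 33.97 RPTM in the knockdown and 174.18 RPTM in wild type, with a ratio of 0.195. The window of LOC_Os05g43170, a calreticulin, a calcium-binding chaperone of the endoplasmic reticulum, had 17.67 RPTM in the knockdown and 90.82 RPTM in wild type, also a ratio of 0.195. The other two were LOC_Os02g11810 and LOC_Os05g23140, given above.

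The 24-nt windows were spread over all 12 chromosomes. On each of them lower windows outnumbered higher ones, where 77.0% of the whole list was lower. Chromosome 2 held the most, with 4 higher and 15 lower windows, and chromosome 12 the fewest, with 2 higher and 3 lower. These counts were not set against chromosome length or the number of tested windows, and no difference between chromosomes was tested. Chromosome 10, which carries OsDCL3b, held 1 higher and 8 lower windows. Its sum of 24-nt signal was 7571 RPTM in the knockdown and 1442 RPTM in wild type, and without the OsDCL3b window 154 RPTM in the knockdown and 1437 RPTM in wild type. On the other 11 chromosomes the knockdown sum was the lower one, from 152 RPTM in the knockdown and 635 RPTM in wild type on chromosome 8 to 798 RPTM in the knockdown and 1607 RPTM in wild type on chromosome 6. The 21-nt windows were on chromosomes 6, 8 and 10 only.

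**Figure D4:**
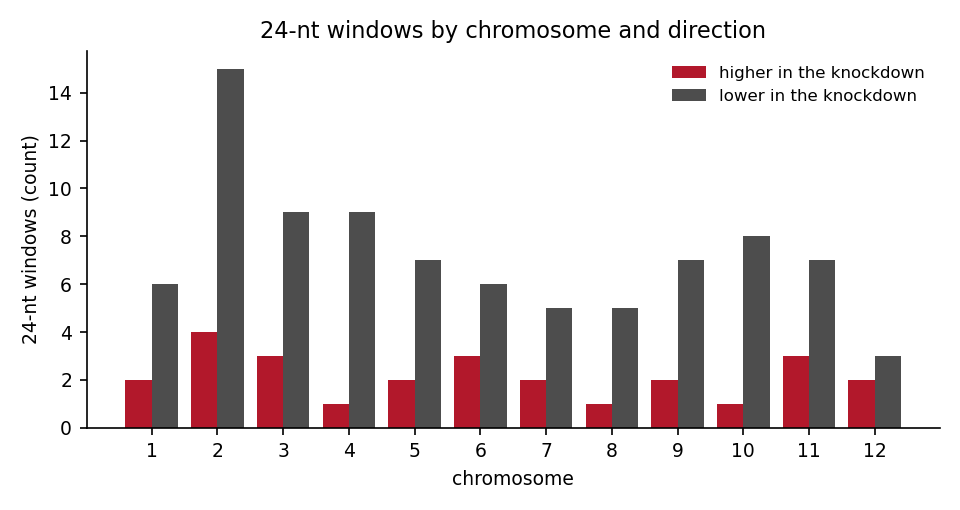
Number of listed 24-nt windows per chromosome that were higher (red) or lower (grey) in the knockdown, 1 library per genotype. Lower windows outnumber higher ones on all 12 chromosomes, with the most on chromosome 2 (4 higher and 15 lower). In the whole list 77.0% of the windows were lower.

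Most 24-nt windows stood alone. Adjoining windows formed 3 runs of 2 windows, namely the higher pair of LOC_Os07g13190, the lower pair of LOC_Os06g43010 and the lower intergenic pair on chromosome 6. Windows of a run always had the same direction. A gap of 1 window separates 2 lower windows on chromosome 10, an intergenic one (28.54 RPTM in the knockdown and 207.78 RPTM in wild type) and one in the CACTA gene LOC_Os10g06640 (23.1 RPTM in the knockdown and 153.03 RPTM in wild type). Within 2.5 kb on chromosome 2, both windows of the retrotransposon gene LOC_Os02g21960 were lower, at 2.72 and 8.15 RPTM in the knockdown, against 116.95 and 133.13 RPTM in wild type. The second of these windows is shared with LOC_Os02g21970, described as a 26S protease regulatory subunit. Counting windows within 10 kb as 1 left 25 higher and 83 lower places for 24-nt siRNA.

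The windows fell in 117 genes, of which 7 (5.98%) were also in the authors' lists of changed mRNAs, or 0.596% of the 1174 listed mRNAs. The mRNA lists hold changed genes only. The share over all genes is thus not known here, and 5.98% cannot be called high or low. Of these 7 genes 4 had a higher and 3 a lower mRNA level in the knockdown, where 54.9% of all listed mRNAs were higher and 45.1% lower. The 24-nt siRNA and the mRNA differed in the same direction in 5 of the 7 genes and in opposite directions in 2, OsDCL3b and LOC_Os03g53790. This split includes the knocked-down gene itself and was not tested. Fold changes and p-values of mRNAs are those of the authors' deposited table, over 3 libraries per genotype. Whether each library is a separate plant is not in the labels, and the p-values may then reflect technical spread alone.

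Both siRNA and mRNA were higher in 3 genes. LOC_Os03g14040, an undescribed expressed protein, had 112.8 RPTM of 24-nt siRNA in the knockdown and 19.91 RPTM in wild type (ratio 5.67, interval 3.29 to 10.4). Its mRNA stood at 72.72, 66.75 and 67.13 FPKM in the knockdown, against 8.98, 9.21 and 7.35 FPKM in wild type, with a log2 fold change of 3.02 and an adjusted p of 7.76e-102 in the authors' deposited table. The genotypes did not overlap.

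LOC_Os02g52730, a ferredoxin-nitrite reductase, which turns nitrite into ammonium in plastids, had 101.92 RPTM in the knockdown and 7.46 RPTM in wild type (ratio 13.7, interval 5.99 to 38.4). Its mRNA was low, at 0.54, 1.03 and 0.45 FPKM in the knockdown and 0.14, 0.08 and 0.11 FPKM in wild type (log2 fold change 2.65, adjusted p of 8.08e-07 in the authors' deposited table). LOC_Os06g03650, whose window is shared with its neighbour, had mRNA at 1.41, 1.14 and 0.22 FPKM in the knockdown and was listed at 0 in the 3 wild type libraries (adjusted p of 0.0104 in the authors' deposited table). In both genes every knockdown library lay above every wild type library.

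Both siRNA and mRNA were lower in 2 genes. LOC_Os02g29130, an ankyrin-repeat protein, had 21.74 RPTM in the knockdown and 156.76 RPTM in wild type (ratio 0.139, interval 0.0769 to 0.234). Its mRNA was low in both genotypes and near the limit of the 2-decimal values in the knockdown. It stood at 0.02, 0.03 and 0.02 FPKM in the knockdown, against 0.18, 0.28 and 0.36 FPKM in wild type. In the authors' deposited table it fell by 3.62 on the log2 scale (adjusted p of 9.41e-14). LOC_Os08g38760, an undescribed expressed protein, had 8.15 RPTM in the knockdown and 97.04 RPTM in wild type (ratio 0.0840, interval 0.0299 to 0.191). Its mRNA was near the limit of the 2-decimal values, at 0.01, 0.03 and 0.02 FPKM in the knockdown and 0.09, 0.05 and 0.08 FPKM in wild type (adjusted p of 0.00373 in the authors' deposited table). The genotypes did not overlap in either gene.

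LOC_Os03g53790, described as a periplasmic beta-glucosidase precursor, an enzyme class that releases glucose from glucosides, had less siRNA and more mRNA. Its window stood at 32.62 RPTM in the knockdown and 190.36 RPTM in wild type (ratio 0.171, interval 0.107 to 0.265). Its mRNA stood at 14.16, 4.85 and 11.60 FPKM in the knockdown, against 2.97, 6.0 and 2.99 FPKM in wild type, with a log2 fold change of 1.35 and an adjusted p of 0.00254 in the authors' deposited table. The genotypes overlapped, since knockdown replicate 2 lay below wild type replicate 2.

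**Figure D5:**
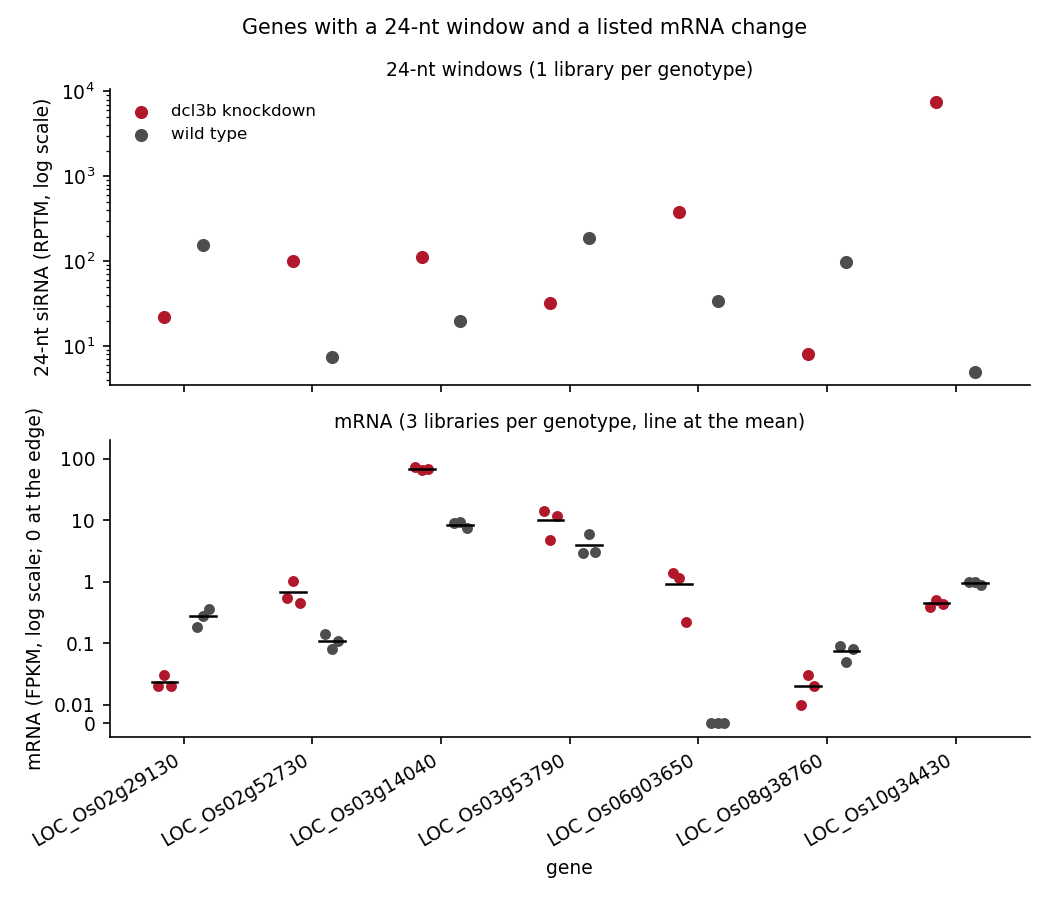
The 7 genes with both a listed 24-nt window and a listed mRNA change, with 24-nt siRNA in RPTM (top, 1 library per genotype) and mRNA in FPKM (bottom, 3 libraries per genotype, line at the mean), both on log axes, knockdown in red and wild type in grey. siRNA and mRNA differ in the same direction in 5 genes and in opposite directions in LOC_Os03g53790 and LOC_Os10g34430 (OsDCL3b).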

How the data were processed

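Small RNA libraries (1 per genotype) and mRNA libraries (3 per genotype) were grouped by their titles. Kits for small RNA and stranded mRNA from Illumina were used per the labels' protocols. TopHat2 2.1.0, Bowtie 1.1.2 and edgeR are named per the submitters' processing notes, without their roles. The genome build, filters and multiple-match handling are not stated in the labels or files.

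The authors deposited window signal in RPTM with a fold ratio, p-values and FDR. Ratios were recomputed from RPTM. In the 97 windows with reads in both libraries they lay within 0.00497 of the deposited ratio where it was below 1. The deposited ratio was 0 in 4 windows, so this comparison is no check of the smallest ratios. The authors' window p-values were not used, since each genotype had 1 library. The deposited mRNA lists give FPKM, log2 fold change and p-values by the authors. Whole reads came from the step of the values (largest misfit 0.00499 RPTM), with depths of 7358371 knockdown and 8037518 wild type reads. Step finding and intervals were run on simulated data. The interval simulation used equal depths and milder ratios than the most extreme windows here, so it does not cover those windows. A library without a read was set at 3 reads, so an "at least" fold treats the other level as exact. Only libraries without a read were raised to this floor. In the ranking by ratio, a lower window left with 1 read thus came before one without a read at a like wild type level. PCR copies are not independent molecules, and intervals and floors hold for counting error alone.

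Members and rules were chosen with earlier results of these data known. Named windows were every 21-nt window, the 8 most abundant and the 5 with the largest ratio above the median per direction, runs of 3 or more, windows of both sizes or of a listed mRNA, and the 5 nearest to a ratio of 1. Windows named outside this rule were chosen after their values were seen. Transposon windows were found by keywords. No sequence was read, since no genome of the files' build was at hand. Python 3.11.15, pandas 2.3.3 and SciPy 1.17.1 were used.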

Additional observations from a re-analysis of the deposited data

How the results depend on the processing

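The counts of 1 higher and 10 lower 21-nt windows and of 26 higher and 87 lower 24-nt windows were the same at a fold of 4, with at least 10 reads in the higher library, with a floor of 1 read and without scaling by depth. These settings could not remove a window, since the lowest fold listed was 5.04 and the lowest level of a higher library 85.62 RPTM, so they say nothing about stability. At a fold of 10, chosen after seeing the data, 14 higher and 47 lower 24-nt windows were left, since fewer windows pass. Counting windows within 10 kb once, also chosen later, left 2 places for the lower 21-nt windows. The summed 21-nt ratio of 5.62 turned to 0.0526 without the most abundant window of each library and to 0.0299 without the OsDCL3b window. The summed 24-nt ratio of 0.840 was 0.356 and 0.346 in the same settings. Over windows with a read in both libraries its direction turned, to 1.01. That setting keeps the OsDCL3b window. It drops the 19 lower windows without a knockdown read and the 3 higher ones without a wild type read. Of the 51 other genic lower windows 32 had a described gene. Runs of adjoining 24-nt windows numbered 3, and 4 with a gap of 1 window. Of the 7 listed mRNAs of genes with a window, 4 had the higher mean in the knockdown with each library left out in turn (4 to 4) and on the log2(FPKM + 0.5) scale. All 49 single-gene values kept their direction. These 7 mRNAs were listed because they changed in the same libraries, so the kept directions say little about stability. No paired analysis was possible because small RNA had 1 library per genotype and no test of the mRNA was run. Without replicates, library-to-library variation of siRNA is unknown.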

Other observations

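Genes close to the windows by locus number, which runs along each chromosome, were also looked up in the lists of changed mRNAs, a search added after the data were seen. Within a difference of 50 in locus number, 23 listed mRNAs lay beside 22 of the windows, in 24 pairs. Intergenic windows carry no locus number and were left out of this search. All genes within that difference were not counted, so the 23 cannot be called many or few. The mRNA was higher in 6 of 10 pairs with a window that was higher in the knockdown and in 9 of 14 pairs with a lower window, where 54.9% of all listed mRNAs were higher. Over the 24 pairs siRNA and mRNA had the same direction in 11 and opposite directions in 13. The pairs are not independent. LOC_Os07g13230 is counted beside each of the adjoining windows of LOC_Os07g13190, and some windows have several listed mRNAs.

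Among these pairs, the window of LOC_Os05g07440 (142.69 RPTM in the knockdown and 9.95 RPTM in wild type) lies between the S-domain receptor-like kinase genes LOC_Os05g07420 and LOC_Os05g07450. LOC_Os05g07420 mRNA was at 2.31, 1.77 and 2.29 FPKM in the knockdown and 0.26, 0.60 and 0.30 FPKM in wild type, and LOC_Os05g07450 mRNA at 1.80, 0.62 and 1.25 FPKM in the knockdown and 0.14, 0.39 and 0.21 FPKM in wild type. The window of LOC_Os04g32620, an ethylene-responsive transcription factor gene, had 9.51 RPTM in the knockdown and 109.49 RPTM in wild type. The next locus, LOC_Os04g32610, an undescribed expressed protein, had 2.85, 3.09 and 2.67 FPKM of mRNA in the knockdown libraries and was listed at 0 in all 3 of wild type. Beside the window of LOC_Os10g19902 and LOC_Os10g19904, with no read in the knockdown and 113.22 RPTM in wild type, LOC_Os10g19910 had mRNA levels of 5.90, 6.55 and 6.39 FPKM in the knockdown, against 0.26, 0.28 and 0.55 FPKM in wild type. In 9 of the 24 pairs the mRNA was lower in the knockdown. LOC_Os04g28420, a peptidyl-prolyl isomerase gene, had 4.16, 4.39 and 5.62 FPKM in the knockdown, against 21.86, 20.47 and 22.18 FPKM in wild type, beside the window of LOC_Os04g28440 (17.67 RPTM in the knockdown and 102.02 RPTM in wild type). LOC_Os02g38260, a glycosyl hydrolase gene, had 9.90, 20.86 and 15.01 FPKM in the knockdown, against 53.92, 41.44 and 46.02 FPKM in wild type, beside the window of LOC_Os02g38290 (1.36 RPTM in the knockdown and 105.75 RPTM in wild type). The genes shown were picked after their values were seen. Distances in bases between these genes and windows were not analysed here.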
